A study of Homo sapiens with 6 samples.

Results

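UT7-5.3, a human leukaemia line grown with the cytokine GM-CSF, was set against K562 and MV4-11 on the values of 6 whole-transcript arrays. UT7-5.3 gave 2 of the 6 arrays, one from cells transduced with a lentiviral shRNA against CXXC5 (shRINF) and one with a control shRNA (shcontrol), and the other lines gave 2 arrays each in the same way. All 6 cultures were proliferating and all carried a lentiviral vector. Per the labels' protocols, UT7-5.3 grew in MEM alpha with serum and GM-CSF, whereas K562 and MV4-11 grew in RPMI medium with serum and without added cytokine. The line, the medium and GM-CSF therefore cannot be told apart. UT7-5.3 came from another laboratory and the other lines from cell collections. The 2 arrays of a line are 2 cultures of the same line, so that each line counts once as a source of biological variation.

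UT-7 cells derive from a megakaryoblastic leukaemia and need a cytokine to grow. GM-CSF acts through a receptor whose beta chain, CSF2RB, is shared with interleukin 3 and interleukin 5, and which signals through the kinase JAK2 and the transcription factor STAT5. K562 comes from chronic myeloid leukaemia and carries the BCR-ABL1 kinase, while MV4-11, from an acute leukaemia, has a KMT2A fusion and an activated FLT3 receptor.

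A gene was called separated where both UT7-5.3 values lay above, or both below, all 4 values of the other lines by at least 1 log2 unit, a description that involves no test. The distance between the nearest values is called the gap. Of 15311 genes measured, 343 (2.24%) were separated upward and 79 (0.516%) downward in UT7-5.3, 422 (2.76%) in all. With no minimum gap, 17.6% of genes lay above all other arrays and 14.4% below them. The same measure separated 272 genes upward and 277 downward in K562, and 564 upward and 371 downward in MV4-11. The test was limma on all genes, UT7-5.3 against both other lines with the shRNA as covariate and Benjamini-Hochberg adjustment. It called 427 genes higher (2.79%) and 145 lower (0.947%) at an adjusted p under 0.05, and the calls included 269 of the 343 and 53 of the 79. These p-values treat the 2 cultures of a line as replicates and are too small as a statement about lines. An exact permutation over 3 lines cannot give a p below 0.333. With the line as a random block, limma called 89 genes higher and 13 lower.

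To enter the comparison a gene had to reach log2 5 on 2 arrays or more. Of the 343 genes, 153 passed that filter through UT7-5.3 alone, so that they had to be higher there, and 80 lay under log2 4, close to the floor of the array, on all 4 other arrays. Of the 79 genes separated downward, 28 lay under log2 5 in both UT7-5.3 arrays. At the edge of the rule, KIAA1549 and NTRK3 were inside with a gap of 1 after rounding, and CMTM8 and ASMTL were outside at 0.99. On the lower side EP400 was inside at -1, and OFD1 and TATDN1 were outside at -0.99.

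**Figure D1:**
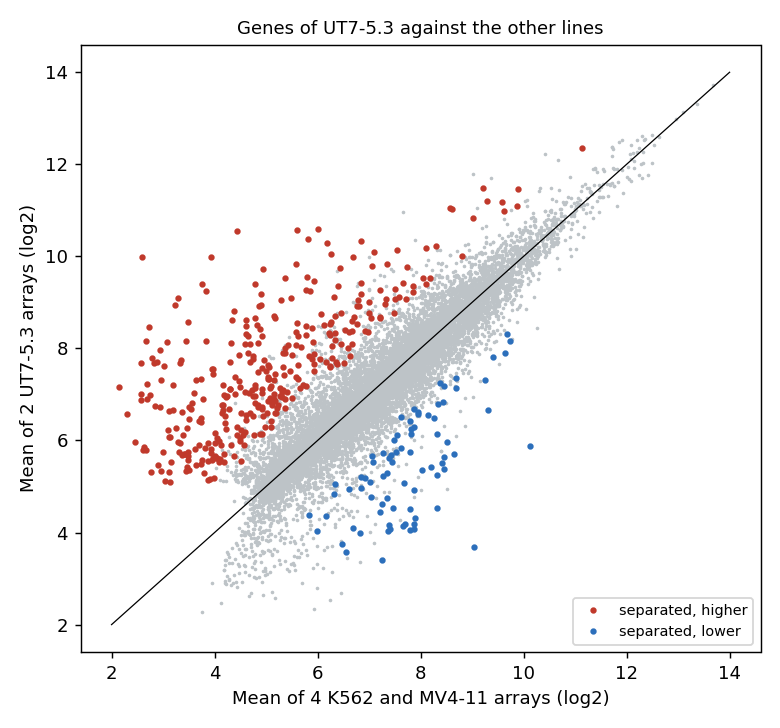
Mean log2 RMA value of each of 15311 genes in the 2 UT7-5.3 arrays (vertical axis) against the mean of the 4 K562 and MV4-11 arrays (horizontal axis), with the line of equality. Red points are the 343 genes separated upward and blue points the 79 separated downward; the red points begin at low levels of the other lines.

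Array medians lay between 4.64 and 4.71. Over all features the UT7-5.3 arrays correlated at 0.993 with each other, at 0.956 to 0.959 with K562 and at 0.940 to 0.943 with MV4-11, as a description over features that are not independent. The targeted gene CXXC5 was at 7.76 with shRINF and 8.42 with shcontrol in UT7-5.3, against 7.95 and 8.40 in K562 and 7.95 and 8.58 in MV4-11. It was lower with shRINF in each line and did not separate UT7-5.3 from the others (-0.13 ± 0.10, SE; limma adjusted p = 0.65). In each series of values below, the shRINF array stands before the shcontrol array of the same line. Fewer cells of a type and less RNA per cell cannot be told apart in such bulk samples.

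The label was checked against lineage markers. Of 8 megakaryocyte markers, 7 had a feature, 5 of which were at log2 5 or more in both UT7-5.3 arrays. Of 8 erythroid markers 5 had a feature, and all 5 were at that level. The same level was reached by 5 of 6 myeloid, 2 of 4 lymphoid and 2 of 3 fibroblast and epithelial markers with a feature, so that it does not tell the types apart. Lymphoid markers reached at most 6.23 in UT7-5.3 and fibroblast and epithelial markers at most 6.17. Of the megakaryocyte markers ITGA2B, ITGB3 and GP1BA lay above 6.23 on both UT7-5.3 arrays, and of the myeloid ones LYZ and ITGAM did. The erythroid markers RHAG, KLF1, HBZ and ALAS2 did as well, and AHSP did not. GP9, PF4, MPO, ELANE and CSF1R were below 6.5 in UT7-5.3, like the lymphoid and the fibroblast and epithelial markers. Of 6 mast cell and basophil markers 4 had a feature, and 2 of these were at log2 5 or more in both UT7-5.3 arrays. They were FCER1A, at 8.77 and 8.40, and KIT, at 8.64 and 8.60, whereas HDC and CPA3 did not reach that level on both.

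The 6 mature microRNA sequences below belong to the microRNA genes that the results turn on, with the seed (bases 2 to 8) in capitals. They are RefSeq sequences of GRCh38.p14, and the array features measured the gene or its hairpin, not the mature RNA.
hsa-miR-323b-5p, chr14:101056233-101056255, plus strand: aGGUUGUCcguggugaguucgca
hsa-miR-323b-3p, chr14:101056269-101056290, plus strand: cCCAAUACacggucgaccucuu
hsa-miR-654-5p, chr14:101040234-101040255, plus strand: uGGUGGGCcgcagaacaugugc
hsa-miR-654-3p, chr14:101040269-101040290, plus strand: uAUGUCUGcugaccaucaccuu
hsa-miR-4500, chr13:87618671-87618687, minus strand: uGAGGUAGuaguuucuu
hsa-miR-3939, chr6:166997830-166997851, minus strand: uACGCGCAgaccacaggauguc
No seed was shared among these 6. The seed of hsa-miR-4500 is that of the let-7 family.

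The genes from DLK1 to DIO3 on chromosome 14, most of them noncoding, had the largest median difference of the gene lists described here. The filter favours this rank. The list was drawn up after values had been seen, so that its count is a description. In this imprinted region DLK1 is expressed from the paternal copy, and the long RNA MEG3, 2 families of C/D box small nucleolar RNAs (SNORD113 and SNORD114) and many microRNAs from the maternal copy. RefSeq places 122 genes between DLK1 and DIO3, of which 101 had a feature and 44 passed the filter. Of these 44, 30 were separated upward and none downward, against 2.24% and 0.516% of all genes. Limma called 31 of the 44 higher and none lower, against 2.79% and 0.947% of all genes. Of the 44, 30 passed the filter through UT7-5.3 alone, so that these had to be higher there. They raise these counts and the median below. The other 57 features did not pass the filter. The median difference of the 44 was 3.20 log2 units, against 0.02 over all genes, and it was 3.14 against K562 alone and 3.15 against MV4-11 alone.

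SNORD114-20 had the largest gap of any gene, 7.09. It was at 10.17 and 9.81 in UT7-5.3, against 2.72 and 2.55 in K562 and 2.71 and 2.42 in MV4-11 (difference 7.39 ± 0.10, SE; limma adjusted p = 5.77e-04). SNORD114-14 was at 10.31 and 9.68 in UT7-5.3, against 4.03 and 3.88 in K562 and 3.92 and 3.90 in MV4-11. The other lines lay near the floor for both of these, and the UT7-5.3 arrays stood far above them. SNORD114-21, SNORD114-17 and SNORD114-1 followed, with gaps of 5.42, 5.12 and 5.02. In all, 28 of the 29 SNORD113 and SNORD114 genes measured were separated upward. The gene not separated was SNORD113-7, with a gap of 0.28. All of the 28 except SNORD114-31 passed the filter through UT7-5.3 alone, so that they had to be higher there. The ratio and the p-values of these genes are therefore no separate support. The copies of these families are alike in sequence, so that a feature may also detect its neighbours and the single values are uncertain.

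MEG3, the long RNA at the start of the cluster, was at 7.71 and 7.83 in UT7-5.3, against 4.76 and 4.79 in K562 and 4.72 and 4.70 in MV4-11 (3.03 ± 0.09, SE; limma adjusted p = 0.00137). MIR323B, whose arms are printed above, was at 6.81 and 6.26 in UT7-5.3, against 4.03 and 4.30 in K562 and 4.18 and 4.28 in MV4-11 (2.34 ± 0.20, SE; limma adjusted p = 0.0132). Both lay above every array of the other lines, and both passed the filter through UT7-5.3 alone, so that they had to be higher there. MIR654 was at 6.77 and 6.74 in UT7-5.3, against 5.62 and 5.65 in K562 and 5.65 and 5.80 in MV4-11, a gap of 0.94 that stayed short of 1 (limma adjusted p = 0.0163). MIR134 and MEG9 had gaps of 0.47 and 0.32. DLK1, the protein-coding gene upstream of MEG3, was not separated. It was at 5.70 and 5.80 in UT7-5.3, against 7.24 and 7.16 in K562 and 5.56 and 5.65 in MV4-11, and so was highest in K562.

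All 28 separated small nucleolar RNAs were higher on the shRINF array of UT7-5.3 than on its shcontrol array, by 0.25 to 1.40 log2 units, whereas over all genes 6490 were higher and 8614 lower on the shRINF array. With 1 array per shRNA this difference has no replicate check, and it was smaller than the gap to the other lines for each of them.

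**Figure D2:**
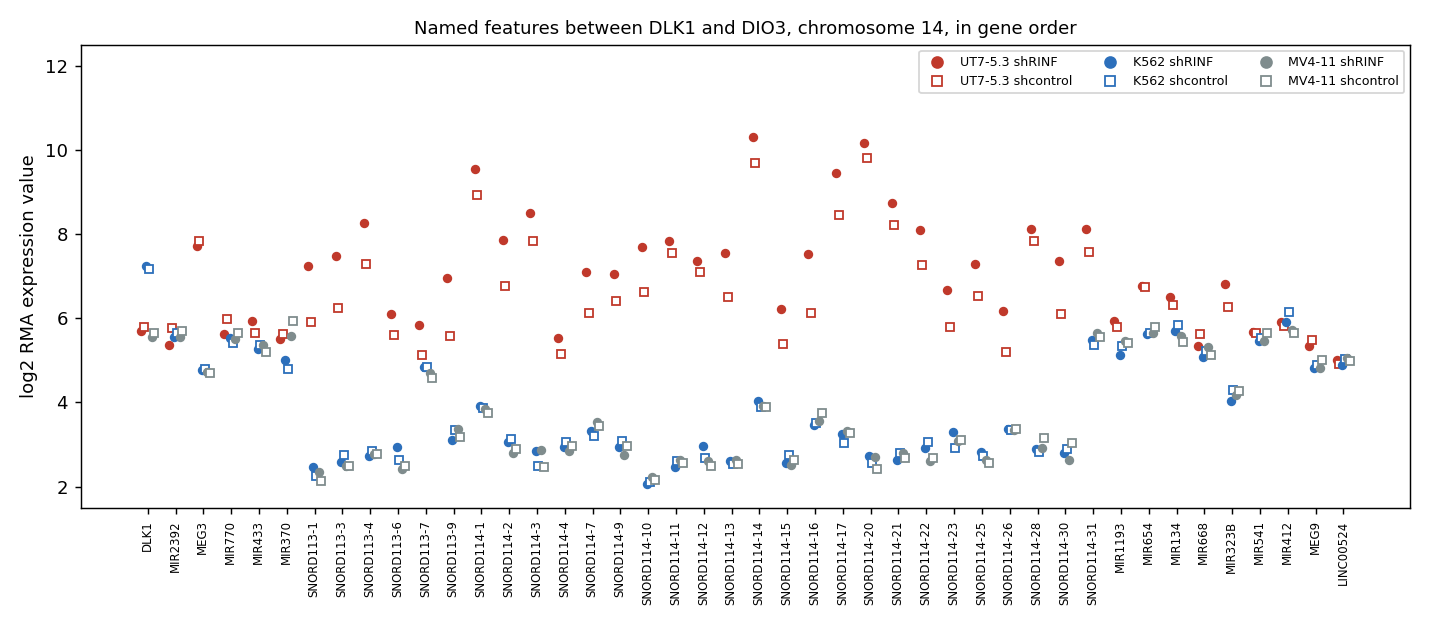
Log2 RMA values (vertical axis) of the named features between DLK1 and DIO3, in gene order along chromosome 14 (horizontal axis), with filled circles for shRINF and open squares for shcontrol. MEG3 and 28 SNORD113 and SNORD114 genes stand above K562 and MV4-11 in UT7-5.3, and DLK1 does not. Of the microRNA genes at the right only MIR323B is separated, and MIR654 stays just short with a gap of 0.94.

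Outside that cluster, MIR4500 on chromosome 13 was at 6.58 and 5.56 in UT7-5.3, against 2.64 and 2.71 in K562 and 3.48 and 3.63 in MV4-11. Its gap was 1.93 and limma's adjusted p was 0.0541, above the threshold. Of the 343 genes separated upward, 294 were protein coding and 28 were small nucleolar RNAs, all of the chromosome 14 families.

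Among protein-coding genes, ANGPT2 and CLCA1 had the largest gaps, 5.58 each. ANGPT2, which encodes the vascular growth factor angiopoietin-2, was at 9.36 and 9.43 in UT7-5.3, against 3.71 and 3.78 in K562 and 3.73 and 3.77 in MV4-11 (5.65 ± 0.08, SE; limma adjusted p = 5.77e-04). CLCA1, a secreted protein best known from mucous cells, was at 9.28 and 8.92 in UT7-5.3, against 3.34 and 3.33 in K562 and 3.22 and 3.28 in MV4-11. Both were near the floor in the other lines. LXN, an inhibitor of carboxypeptidases, was at 8.40 and 7.86 in UT7-5.3, against 3.19 and 3.07 in K562 and 3.09 and 2.93 in MV4-11. CD24, a glycosylated surface protein, was at 10.54 and 10.65 in UT7-5.3, against 6.12 and 5.64 in K562 and 6.25 and 6.04 in MV4-11, and was one of the few at the top that the other lines also showed above log2 5. SPINT2, a serine protease inhibitor of the cell surface, was another, at 9.73 and 9.95 in UT7-5.3, against 5.57 and 5.66 in K562 and 5.57 and 5.54 in MV4-11 (4.26 ± 0.10, SE; limma adjusted p = 0.00102). FAM171B, TSPYL5 and HOOK1, the last a linker of membranes to microtubules, completed the top with gaps of 4.63, 4.28 and 4.04.

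**Figure D3:**
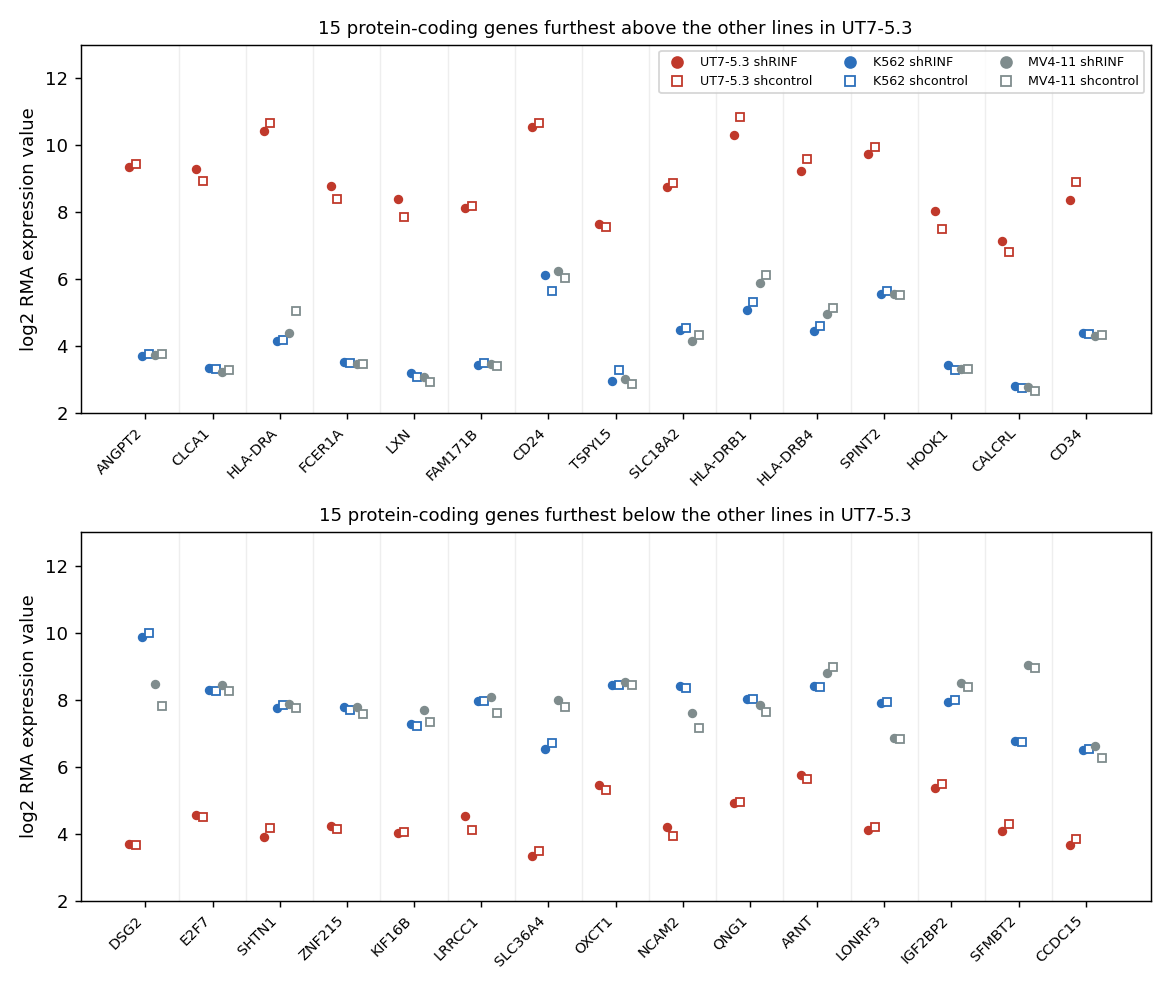
Log2 RMA values (vertical axis) of the 15 protein-coding genes with the largest gap above (upper panel) and below (lower panel) the other lines, with filled circles for shRINF and open squares for shcontrol. In each gene the 2 UT7-5.3 arrays lie close together compared with their distance from K562 and MV4-11. In the lower panel the other lines also lie apart from each other in DSG2, SLC36A4, NCAM2, LONRF3 and SFMBT2.

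Some genes of vascular endothelium, 11 of 34 measured, were separated upward in UT7-5.3. This list, like that of stem and progenitor genes, was drawn up after values had been seen, so that its count is a description. None of the 34 was separated downward. The shares of all genes were 2.24% upward and 0.516% downward, and these are the shares to set beside the list counts below. Of the 34, 9 passed the filter through UT7-5.3 alone, so that these had to be higher there. TEK, KDR, F8, CALCRL and ERG, named below, passed in this way, as did ANGPT2. Limma called 12 of the 34 higher and none lower, and the median difference was 0.91. TEK, the receptor of the angiopoietins, was at 6.76 and 6.59 in UT7-5.3, against 3.59 and 3.60 in K562 and 3.47 and 3.52 in MV4-11 (3.13 ± 0.10, SE; limma adjusted p = 0.00147). KDR, a receptor of vascular endothelial growth factor, was at 6.52 and 6.44 in UT7-5.3, against 3.71 and 3.75 in K562 and 3.80 and 3.71 in MV4-11. Ligand ANGPT2 and receptor TEK were thus both above all other arrays. TIE1, the related orphan receptor, was at 7.17 and 7.86 in UT7-5.3, against 5.49 and 5.46 in K562 and 5.45 and 5.46 in MV4-11 (limma adjusted p = 0.0163).

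PLVAP, a protein of endothelial diaphragms, was at 8.59 and 8.82 in UT7-5.3, against 5.39 and 5.44 in K562 and 4.89 and 4.92 in MV4-11. F8, coagulation factor VIII, was at 8.19 and 8.04 in UT7-5.3, against 4.49 and 4.53 in K562 and 4.10 and 4.13 in MV4-11. CALCRL, a receptor subunit for adrenomedullin, was at 7.15 and 6.81 in UT7-5.3 and at 2.66 to 2.80 on the other 4 arrays (4.23 ± 0.11, SE; limma adjusted p = 0.00102). The other lines lay under log2 4 for CALCRL and above it for F8 and PLVAP, and no groups overlapped. ERG, an ETS transcription factor of endothelium and blood stem cells, was at 6.41 and 6.77 in UT7-5.3, against 4.12 and 4.17 in K562 and 4.10 and 4.15 in MV4-11 (limma adjusted p = 0.00305). CDH5, the cadherin of endothelial junctions, was barely inside the rule, with a gap of 1.02 (limma adjusted p = 0.0256).

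Other defining endothelial genes were not separated. VWF, the von Willebrand factor, was at 4.94 and 5.12 in UT7-5.3, against 4.92 and 5.04 in K562 and 4.99 and 4.99 in MV4-11. SOX17, ROBO4 and CLDN5 overlapped the other lines in the same way, and PECAM1, at 8.38 and 8.24 in UT7-5.3, was at 4.32 and 4.69 in K562 but at 7.53 and 8.09 in MV4-11. Of 23 measured stem and progenitor genes, 6 were separated upward and 1 downward, and limma called 4 higher and 1 lower. Of the 23, 3 passed the filter through UT7-5.3 alone, among them CD34, so that these had to be higher there. CD34, the surface marker of blood progenitors, was at 8.35 and 8.90 in UT7-5.3, against 4.38 and 4.35 in K562 and 4.30 and 4.32 in MV4-11 (4.29 ± 0.16, SE; limma adjusted p = 0.00208).

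A part of the MHC class II genes, 6 of 18 measured, was separated upward. Their proteins present peptides to CD4+ T cells, and their transcription depends on the coactivator CIITA and on factors bound to conserved promoter boxes, one of which is the Y box. None of the 18 was separated downward. Of the 18, 2 passed the filter through UT7-5.3 alone, among them HLA-DPA1, so that these had to be higher there. Limma called 7 of the 18 higher and none lower. The median difference was 0.72. The separated members were the chains HLA-DRA, HLA-DRB1, HLA-DRB4, HLA-DRB5 and HLA-DPA1 and the peptide loader subunit HLA-DMA. Both promoter stretches below end at the base before the annotated start of the gene, with the Y box CTGATTGG in capitals. They are printed because both genes were separated upward and hold this box.
HLA-DRB1, chr6:32589849-32589998, minus strand, GRCh38.p14: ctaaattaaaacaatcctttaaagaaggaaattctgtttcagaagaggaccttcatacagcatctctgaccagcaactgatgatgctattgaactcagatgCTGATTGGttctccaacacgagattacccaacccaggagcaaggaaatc
HLA-DMA, chr6:32953098-32953247, minus strand, GRCh38.p14: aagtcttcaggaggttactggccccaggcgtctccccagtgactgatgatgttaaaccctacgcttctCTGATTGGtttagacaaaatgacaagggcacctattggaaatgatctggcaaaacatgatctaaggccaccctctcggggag

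The Y box began at position -49 in HLA-DRB1 and -82 in HLA-DMA. Searched on both strands from 250 bases before to 50 after the start, CTGATTGG was in 604 of 11084 promoters (5.45%), in 13 of 238 of the genes separated upward (5.46%) and in 6 of 14 class II list members (42.9%). Those 6 were HLA-DRB1, HLA-DRB5, HLA-DQB1, HLA-DQB2, HLA-DMA and RFX5, of which the HLA-DQB genes and RFX5 were not separated. A match is a description of the letters in this window.

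HLA-DRA, the alpha chain of HLA-DR, was at 10.43 and 10.66 in UT7-5.3, against 4.15 and 4.17 in K562 and 4.38 and 5.06 in MV4-11 (6.11 ± 0.28, SE; limma adjusted p = 0.00308). HLA-DRB1, the beta chain, was at 10.31 and 10.84 in UT7-5.3, against 5.07 and 5.31 in K562 and 5.89 and 6.13 in MV4-11. HLA-DMA was at 8.17 and 8.56 in UT7-5.3, against 5.17 and 5.11 in K562 and 5.71 and 6.36 in MV4-11 (limma adjusted p = 0.0462). MV4-11 was above K562 in these 3 and UT7-5.3 was above both. HLA-DRB genes are alike in sequence, so that their single values are uncertain. All 6 separated class II genes were lower on the shRINF than on the shcontrol array of UT7-5.3, as were 8614 of all genes, against 6490 that were higher. With 1 array per shRNA this difference has no replicate check. CIITA itself had a gap of 0.47, at 6.35 and 6.87 in UT7-5.3, against 5.54 and 5.58 in K562 and 5.74 and 5.88 in MV4-11 (limma adjusted p = 0.076). CD74, the invariant chain, was at 7.31 and 7.95 in UT7-5.3, against 6.14 and 6.09 in K562 and 7.16 and 7.68 in MV4-11, and overlapped MV4-11. Of 21 MHC class I genes none was separated and limma called none, with 1 higher at an unadjusted p under 0.05.

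Of 19 measured mast cell, basophil and eosinophil genes, 6 were separated upward and none downward, and limma called 6 higher. The share of all genes separated upward was 2.24%. Of these 19, 4 passed the filter through UT7-5.3 alone (FCER1A, SLC18A2, HPGDS and CD200R1), so that these had to be higher there. The median difference of the 19 was 0.46. Limma called 13 of the 19 in neither direction. RNASE2 was at 4.85 and 5.03 in UT7-5.3, against 5.01 and 4.84 in K562 and 12.11 and 12.13 in MV4-11. MS4A3 and ALOX5AP were also highest in MV4-11, and ENPP3 in K562. FCER1A, the alpha chain of the high-affinity IgE receptor, was at 8.77 and 8.40 in UT7-5.3, against 3.54 and 3.50 in K562 and 3.46 and 3.46 in MV4-11 (5.10 ± 0.12, SE; limma adjusted p = 0.00102). KIT, the receptor of stem cell factor, was at 8.64 and 8.60 in UT7-5.3, against 4.47 and 4.56 in K562 and 5.00 and 4.41 in MV4-11 (4.01 ± 0.19, SE; limma adjusted p = 0.00317). SLC18A2, which loads monoamines into vesicles, was at 8.76 and 8.88 in UT7-5.3, against 4.47 and 4.54 in K562 and 4.15 and 4.34 in MV4-11. HPGDS, the haematopoietic prostaglandin D synthase, was at 6.40 and 5.75 in UT7-5.3, against 3.22 and 3.19 in K562 and 2.96 and 3.15 in MV4-11. CD200R1 and PRG2 were the remaining separated members, with gaps of 2.39 and 1.27. The mast cell protease gene CPA3 was near the floor on every array, at 3.20 and 3.46 in UT7-5.3 and 2.80 to 3.01 in the other lines, and HDC, the histamine-forming enzyme, was at 4.59 and 5.50 in UT7-5.3, against 4.43 to 4.52 in the other lines. Neither passed the filter.

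The promoter of FCER1A is printed because its gene had the largest gap of this group and holds a GATA motif, AGATAA, here on the opposite strand as TTATCT in capitals, at position -122. GATA1 and GATA2 are transcription factors of erythroid, megakaryocytic and mast cells.
FCER1A, chr1:159302186-159302335, plus strand, GRCh38.p14: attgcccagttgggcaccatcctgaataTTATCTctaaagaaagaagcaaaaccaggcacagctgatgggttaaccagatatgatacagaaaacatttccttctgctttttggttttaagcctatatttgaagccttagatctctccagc
AGATAA was in 595 of 11084 promoters (5.37%), in 26 of 238 of the genes separated upward (10.9%) and in 5 of 61 of those separated downward (8.20%), searched over the same window and both strands. Those 26 included FCER1A, HPGDS, CD200R1, IL1B, CCR4, ALDH1A1, GSTM3 and TNFSF10. The STAT motif TTCNNNGAA was in 671 promoters (6.05%), in 14 of the 238 (5.88%) and in 6 of the 61 (9.84%). As for the Y box, a match describes letters only, and binding of any factor was not tested.

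Megakaryocyte genes gave a mixed result. Of 28 measured members 3 were separated upward and none downward, and limma called 5 higher and none lower, with a median difference of 0.37. The share of all genes separated upward was 2.24%. Of the 28, 2 passed the filter through UT7-5.3 alone, and neither was separated. ITGA2B, the platelet integrin chain CD41, was at 8.21 and 8.79 in UT7-5.3, against 6.27 and 6.23 in K562 and 5.94 and 6.06 in MV4-11 (2.38 ± 0.19, SE; limma adjusted p = 0.011). Its partner ITGB3 was at 6.75 and 7.61 in UT7-5.3, against 5.15 and 5.26 in K562 and 4.97 and 4.99 in MV4-11 (limma adjusted p = 0.0252). GP1BA, part of the platelet receptor for von Willebrand factor, was at 6.77 and 7.12 in UT7-5.3, against 5.50 and 5.35 in K562 and 5.25 and 5.14 in MV4-11. These 3 receptor chains were above all other arrays. The late granule genes were not: PF4, platelet factor 4, was at 5.42 and 5.92 in UT7-5.3, against 5.70 and 5.82 in K562 and 5.83 and 5.76 in MV4-11. PPBP was near the floor everywhere, at 3.02 and 3.00 in UT7-5.3. The collagen receptor GP6 was at 8.64 and 8.96 in UT7-5.3, against 8.16 and 7.98 in K562 and 5.65 and 5.91 in MV4-11.

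Erythroid genes set UT7-5.3 apart from MV4-11 and not from K562. Of 39 measured members 36 were higher than in MV4-11, with a median difference of 1.28, and 18 were higher than in K562, with a median of -0.01. Only CA1, a carbonic anhydrase of red cells, was separated, at 7.49 and 6.72 in UT7-5.3, against 5.66 and 5.50 in K562 and 3.89 and 3.89 in MV4-11 (limma adjusted p = 0.21), and limma called 2 of the 39 higher. GATA1, the erythroid and megakaryocytic factor, was at 9.83 and 9.81 in UT7-5.3, against 10.45 and 10.39 in K562 and 5.62 and 5.94 in MV4-11. HBZ, the embryonic zeta globin, was at 11.88 and 11.51 in UT7-5.3, against 12.34 and 12.32 in K562 and 6.52 and 6.28 in MV4-11. GATA2 was highest in UT7-5.3, at 8.75 and 9.25, against 8.06 and 8.02 in K562 and 6.68 and 6.55 in MV4-11, with a gap of 0.69 (limma adjusted p = 0.28). Of 41 transcription factors of blood cells, 2 were separated upward, ERG and IKZF3, and limma called 1 higher. Of 29 granulocytic and monocytic genes none was separated or called by limma, with 3 higher at an unadjusted p under 0.05. The lysozyme gene LYZ was at 10.10 and 9.84 in UT7-5.3, against 9.40 and 9.36 in K562 and 11.49 and 12.33 in MV4-11.

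**Figure D4:**
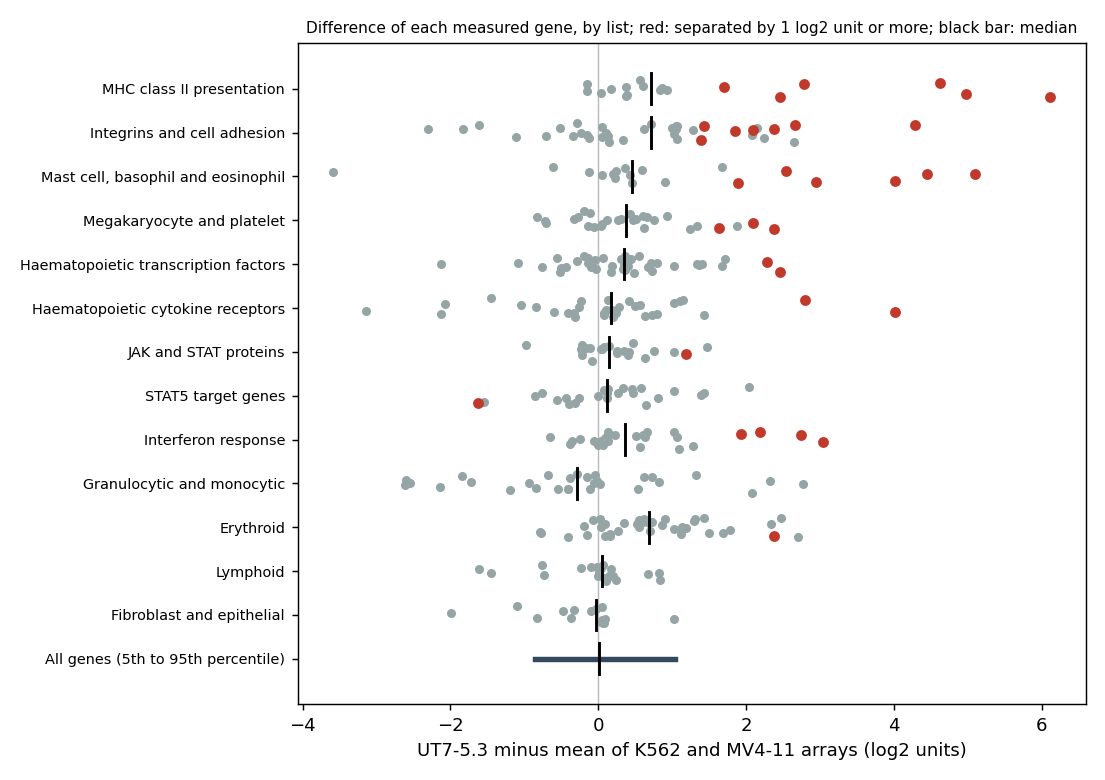
Difference between the mean of UT7-5.3 and the mean of the other lines, in log2 units (horizontal axis), for each measured gene of 13 lists (rows). Red points are separated genes, black bars list medians, and the bottom row the 5th to 95th percentile of all genes; the points furthest to the right belong to MHC class II, mast cell and adhesion lists, and the only separated gene to the left is EGR1, a member of the STAT5 target list.

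The receptor through which GM-CSF acts was followed from its chains to the targets of STAT5. CSF2RB, the shared beta chain, was at 9.0 and 9.22 in UT7-5.3, against 5.96 and 6.09 in K562 and 6.52 and 6.70 in MV4-11 (2.79 ± 0.26, SE; limma adjusted p = 0.0164). CSF2RA, the chain that binds GM-CSF, was at 7.85 and 7.95 in UT7-5.3, against 5.79 and 5.74 in K562 and 8.29 and 8.58 in MV4-11, and so was highest in MV4-11. The interleukin 3 chain IL3RA was in the same order, at 6.47 and 6.87 in UT7-5.3, against 4.99 and 4.88 in K562 and 8.97 and 9.14 in MV4-11. KIT and CSF2RB were the 2 of 33 cytokine receptor genes separated upward, and none was separated downward, while limma called 2 higher and none lower.

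Of 23 JAK and STAT genes, only the kinase JAK1 was separated, at 10.07 and 9.93 in UT7-5.3, against 8.73 and 8.70 in K562 and 8.90 and 8.90 in MV4-11 (1.19 log2 units; limma adjusted p = 0.0187), and it was also the only one called. Of 25 STAT5 target genes none was called by limma, with 4 higher and 2 lower at an unadjusted p under 0.05, and the median difference was 0.12. CISH, a feedback inhibitor of cytokine receptors, was at 6.58 and 6.84 in UT7-5.3, against 6.65 and 6.60 in K562 and 6.59 and 6.52 in MV4-11, with no separation. PIM1, a survival kinase, was at 10.57 and 10.74 in UT7-5.3, against 10.67 and 10.58 in K562 and 7.70 and 8.13 in MV4-11. EGR1, an immediate early transcription factor, was separated downward, at 5.06 and 5.37 in UT7-5.3, against 6.60 and 6.74 in K562 and 6.5 and 7.52 in MV4-11 (-1.63 log2 units; limma adjusted p = 0.054). Among 32 genes of ERK feedback and immediate early response it was the only one separated, and limma called 1 higher and 1 lower.

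The following secreted factors and receptors were picked from the separated genes by their role after values had been seen, and stand for no list. IL1B, interleukin 1 beta, was at 9.79 and 9.68 in UT7-5.3, against 4.56 and 4.50 in K562 and 4.85 and 5.86 in MV4-11 (4.79 log2 units; limma adjusted p = 0.0163). IL1A was at 5.64 and 5.30 in UT7-5.3 and near the floor in the other lines, at 2.81 to 3.01. CCR4, a chemokine receptor, was at 8.20 and 7.15 in UT7-5.3, against 3.28 and 3.36 in K562 and 3.22 and 3.44 in MV4-11. The secreted factors LIF, SPP1 and CCL2 had smaller gaps, of 1.55, 1.94 and 1.06, and the death ligand TNFSF10 one of 2.52 (limma adjusted p = 0.0778).

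Of 26 interferon response genes, 4 were separated upward and none downward. Limma called 3 higher and none lower, with a median difference of 0.37. Of the 26, 3 passed the filter through UT7-5.3 alone, among them GBP4 and IFI44, so that these had to be higher there. GBP4, a guanylate-binding protein, was at 7.33 and 7.08 in UT7-5.3, against 4.47 and 4.38 in K562 and 3.98 and 3.85 in MV4-11 (limma adjusted p = 0.0101). IFI44 was at 6.07 and 5.44 in UT7-5.3, against 2.94 and 2.88 in K562 and 3.03 and 3.18 in MV4-11 (limma adjusted p = 0.00968). IFI6 and EPSTI1 were separated but not called by limma (adjusted p = 0.0721 and 0.0785). EPSTI1, an interferon-induced gene of stroma and epithelium, was at 7.86 and 6.36 in UT7-5.3, against 5.29 and 5.11 in K562 and 4.69 and 4.58 in MV4-11. Its 2 UT7-5.3 arrays differed by 1.5, more than its gap of 1.07, the only separated gene of which that was so.

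Integrin and adhesion genes had 7 of 37 measured members separated upward and none downward, and limma called 9 higher and none lower (median difference 0.72). Over all genes 2.24% were separated upward and 2.79% called higher. Of the 37, 3 passed the filter through UT7-5.3 alone, among them ITGA8 and ITGA9, so that these had to be higher there. Besides the platelet chains, ITGA8 was at 6.28 and 6.53 in UT7-5.3, against 3.69 and 3.73 in K562 and 3.79 and 3.77 in MV4-11 (limma adjusted p = 0.00235). ITGA9 and the leukocyte adhesion molecule ICAM3 had gaps of 1.67 and 1.22. Of 39 detoxification and glutathione genes, 5 were separated upward and 1 downward, and limma called 1 higher and none lower. ALDH1A1, a retinal-oxidising enzyme, was at 9.35 and 9.70 in UT7-5.3, against 6.39 and 6.5 in K562 and 4.38 and 4.24 in MV4-11 (limma adjusted p = 0.108). GSTM3, a glutathione transferase, was at 8.59 and 8.25 in UT7-5.3, against 5.46 and 5.28 in K562 and 4.31 and 4.45 in MV4-11 (limma adjusted p = 0.0306). The mitochondrial ALDH2 went the other way, at 5.83 and 6.12 in UT7-5.3, against 7.44 and 7.48 in K562 and 9.48 and 9.62 in MV4-11.

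CDKN2A, which encodes the cell cycle inhibitors p16 and p14ARF, was at 7.77 and 7.42 in UT7-5.3, against 5.16 and 5.23 in K562 and 5.58 and 5.35 in MV4-11 (2.27 log2 units; limma adjusted p = 0.00937). Of 15 genes of cyclin D, the CDK inhibitors and RB it was the only one separated, and limma called 2 higher and none lower. Of 34 cell cycle genes the mitotic activator CDC20 was the only one separated, at 10.80 and 10.87 in UT7-5.3, against 9.35 and 9.36 in K562 and 8.81 and 8.58 in MV4-11 (limma adjusted p = 0.0582). Limma called none of the 34, with 4 higher and 3 lower at an unadjusted p under 0.05. The kinase PLK2, a p53 target, was at 8.91 and 8.08 in UT7-5.3, against 3.96 and 4.12 in K562 and 5.10 and 5.27 in MV4-11 (limma adjusted p = 0.0413). Of 23 p53 target genes, PLK2 and TP53INP1 were separated upward and none downward, and limma called 1 higher and 1 lower. Of 36 genes of amino acid supply and the stress response, the folate enzyme ALDH1L2 was the only one separated, downward, at 4.05 and 4.12 in UT7-5.3, against 6.01 and 5.91 in K562 and 9.14 and 8.53 in MV4-11. Limma called 1 of the 36 higher and 1 lower. SLC40A1, the iron exporter ferroportin, was at 10.44 and 10.16 in UT7-5.3, against 8.26 and 8.22 in K562 and 4.07 and 4.15 in MV4-11 (limma adjusted p = 0.336).

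No separated gene was found among 27 HOX genes and cofactors, 22 lymphoid, 15 fibroblast and epithelial, 23 cholesterol, 20 cancer testis antigen or 15 BCL2 family genes, and limma called none of them. At an unadjusted p under 0.05 limma had 1 HOX gene higher and 3 lower, 1 lymphoid gene higher, 2 cholesterol genes higher and 1 lower, 1 BCL2 family gene higher, and none of the fibroblast and epithelial or cancer testis antigen genes. Of 10 microRNA genes of blood cells none was separated, and limma called 1 higher and none lower.

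The genes separated downward were fewer. DSG2, a desmosomal cadherin, had the largest gap, -4.12, at 3.70 and 3.66 in UT7-5.3, against 9.88 and 9.98 in K562 and 8.47 and 7.82 in MV4-11 (-5.36 ± 0.76, SE; limma adjusted p = 0.0428). E2F7, a repressor of E2F target genes, was at 4.55 and 4.51 in UT7-5.3, against 8.29 and 8.26 in K562 and 8.44 and 8.25 in MV4-11 (-3.78 ± 0.10, SE; limma adjusted p = 0.00102). The small nucleolar RNA SNORD93 was at 5.83 and 5.92 in UT7-5.3, against 9.59 and 9.70 in K562 and 10.53 and 10.64 in MV4-11 (-4.24 ± 0.40, SE; limma adjusted p = 0.0172). In UT7-5.3 DSG2 was near the floor, while SNORD93 was not. SHTN1, named for its part in the polarity of neurons, was at 3.91 and 4.18 in UT7-5.3, against 7.74 and 7.85 in K562 and 7.87 and 7.75 in MV4-11. ZNF215, KIF16B, LRRCC1, SLC36A4 and NCAM2 followed, with gaps between -3.36 and -2.95.

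OXCT1, which lets mitochondria use ketone bodies, was at 5.46 and 5.30 in UT7-5.3, against 8.44 and 8.43 in K562 and 8.54 and 8.43 in MV4-11 (limma adjusted p = 0.00135). ARNT, the partner of the hypoxia-inducible factors and of the aryl hydrocarbon receptor, was at 5.76 and 5.64 in UT7-5.3, against 8.41 and 8.39 in K562 and 8.81 and 8.97 in MV4-11 (-2.95 ± 0.23, SE; limma adjusted p = 0.0106). IGF2BP2, an RNA-binding protein, was at 5.36 and 5.48 in UT7-5.3, against 7.94 and 7.99 in K562 and 8.49 and 8.38 in MV4-11. For these genes K562 and MV4-11 lay close together. MALT1, a protease of NF-kappaB signalling, had a gap of -2.27 (limma adjusted p = 0.0229). SFMBT2, a Polycomb protein, was at 4.09 and 4.30 in UT7-5.3, against 6.78 and 6.74 in K562 and 9.04 and 8.95 in MV4-11, and was not called by limma (adjusted p = 0.149). The microRNA gene MIR3939, whose mature sequence is printed above, was at 5.19 and 5.26 in UT7-5.3, against 7.01 and 7.23 in K562 and 7.59 and 7.22 in MV4-11. SEPTIN14P6, LINC00667 and KCNQ5-IT1 were the other noncoding genes at the lower end, with gaps of -1.66, -1.53 and -1.49.

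Counted over chromosomes 1 to 22 and X, the share of separated genes varied. Chromosome 14 held 36 separated upward among 525 genes (6.86%), 30 of which lay in the DLK1 to DIO3 cluster, chromosome 6 held 30 of 766 (3.92%) and chromosome 16 held 1 of 754 (0.133%). Chromosome 12 held 15 of 775 separated downward (1.94%). The median difference in sliding windows of 60 neighbouring protein-coding genes, a measure added after values had been seen, lay between -0.235 and 0.27 in the middle 90% of 11526 windows.

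On chromosome 3 the window from PRKCI to ETV5 had a median of 0.74, with 54 of 60 genes higher in UT7-5.3, 5 separated upward and 2 downward. The median was 0.57 against K562 and 0.70 against MV4-11. On chromosome 19 the window from HAUS5 to YIF1B had a median of 0.64, with 57 of 60 higher and 9 separated, among them SPINT2, COX6B1 and CAPNS1. On chromosome 15 the window from RCN2 to ABHD2 had a median of 0.63, with 48 of 60 higher and 8 separated. On chromosome 12 the window from PSMD9 to GOLGA3 had a median of -0.63, with 55 of 60 lower and 7 separated downward, among them KNTC1, EIF2B1 and EP400. These 4 windows are the highest of chromosomes 3, 19 and 15 and the lowest of chromosome 12, picked for the size of their median. They therefore lie outside the range of most windows by choice. Their medians had the same sign against K562 and against MV4-11, which such a choice favours. DNA copy number was not measured here, and its part was not tested.

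**Figure D5:**
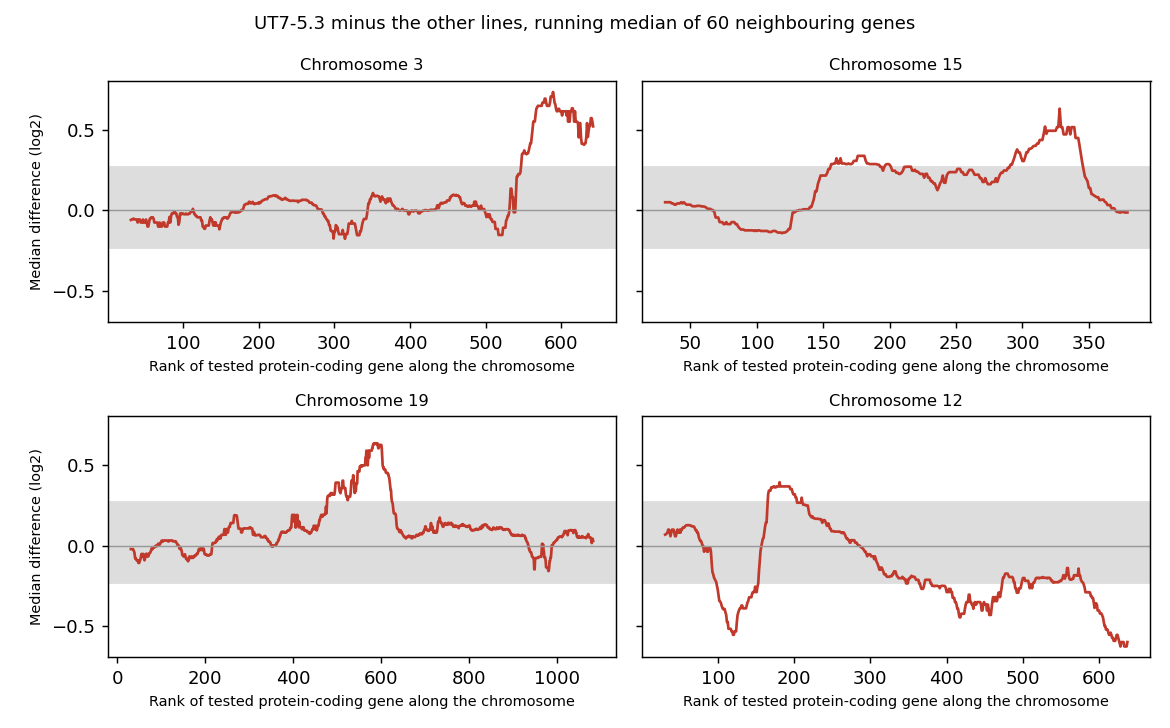
Running median of the difference between UT7-5.3 and the other lines, in log2 units (vertical axis), over 60 neighbouring protein-coding genes ranked along chromosomes 3, 15, 19 and 12 (horizontal axis). The grey band is the 5th to 95th percentile of all windows; the curve peaks at 0.74 on chromosome 3, 0.63 on chromosome 15 and 0.64 on chromosome 19, and is lowest near the end of chromosome 12.

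Zinc finger genes of chromosome 19 went both ways. Of 209 protein-coding ones measured, 8 were separated upward and 3 downward, and the list's median difference was 0.01. ZNF492, ZNF730, ZNF724 and ZNF849P, a pseudogene not counted among the 209, were neighbours that were all separated upward, and ZNF83, ZNF611 and ZNF600 were neighbours that were all separated downward. ZNF492 was at 8.67 and 8.02 in UT7-5.3, against 6.22 and 6.07 in K562 and 6.27 and 6.31 in MV4-11. ZNF83 was at 5.88 and 5.62 in UT7-5.3, against 7.52 and 7.45 in K562 and 7.54 and 7.6 in MV4-11. These genes share much sequence with each other, so that the single values are uncertain.

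The 2 UT7-5.3 arrays differed more than the arrays of the other lines did. The SD over genes of the difference between shRINF and shcontrol was 0.259 in UT7-5.3, against 0.103 in K562 and 0.179 in MV4-11. Among the 343 genes separated upward, the pair differed by a median of 0.30 in size, and 232 were higher on the shRINF array against 111 on the shcontrol array. In 14 of them the pair differed by 1 or more, in every case with the shRINF array higher. Of these, 9 were SNORD113 or SNORD114 genes and 5 were EPSTI1, NTS, GPR174, CCR4 and MIR4500. NTS, which encodes neurotensin, was at 6.70 and 5.24 in UT7-5.3 and at 2.38 to 2.51 in the other lines. Among the 79 genes separated downward no pair differed by 1 or more, and the differences ran from -0.63 to 0.91. Limma without the UT7-5.3 shRINF array called 30 genes higher and 4 lower, and without the shcontrol array 49 higher and 4 lower. Without either K562 or either MV4-11 array it called 125 to 152 higher and 14 to 20 lower.

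Some genes had a second feature on the array, which the rule did not use. Of 40 other features of 12 genes separated upward, 37 were separated in the same direction, 39 lay above all other arrays and none was separated downward. For the genes separated downward 1 other feature was measured, which lay below all other arrays without reaching a gap of 1. Features of 1 gene share its transcript and are not independent of it.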

How the data were processed

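Total RNA of 3 leukaemia lines was hybridised to 6 whole-transcript arrays, 1 per line and shRNA. The authors deposited log2 expression values. Per the submitters' processing notes they used Affymetrix Expression Console and its RMA method. Versions, the genome build and the log base are not given in these sources, and base 2 was taken from the method. RMA forces the arrays onto one distribution and can hide a shift of most transcripts. Arrays give no counts, and their number limits the precision.

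Of 67528 features, 23781 had 1 gene symbol in the platform's annotation, 1543 several and 42204 none listed. A gene had to reach log2 5 on 2 arrays or more and was represented by the feature with the highest mean, which left 15311 genes. Of these, 15306 matched RefSeq GRCh38.p14, and 12893 were protein coding. limma 3.58.1 (lmFit and eBayes, R 4.3.3) compared the 2 UT7-5.3 arrays with the 4 others with the shRNA as covariate, and p-values were adjusted by Benjamini-Hochberg over all genes. The labels name separate samples but no separate cultures per condition. The smallest p of an exact permutation of 2 of 6 arrays is 0.0667.

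The comparison, the gene lists and the genes were chosen with earlier results of these data known. The rule for named genes took the 15 protein-coding and 5 other genes of largest gap in each direction, up to 4 per list, CXXC5 and the genes at the edge of the rule. The endothelial, stem, chromosome 14 and zinc finger lists, the windows and the promoter motifs were added after values had been seen. Other genes were named for their role. Sequences are from RefSeq tables. Alternatives covered the filter, the feature of a gene, normalization, the variance model, the covariate, the threshold and leaving out each array or line.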

Additional observations from a re-analysis of the deposited data

Results flagged for a closer look

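Features with no single gene symbol were left out of the gene comparison. Among the 16610 of them that passed the same filter, 212 (1.28%) were separated upward and 102 (0.614%) downward in UT7-5.3, with largest gaps of 6.62 and -5.28. They were picked out because they lie outside the named genes and show the same kind of separation. They were not named here.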

How the results depend on the processing

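The counts are those of genes higher and lower by limma (427 and 145 as reported) and separated upward and downward (343 and 79). Leaving out 1 array in turn gave 30 to 152 higher and 4 to 20 lower by limma, and 350 to 440 upward and 82 to 163 downward. Limma called 3347 and 2971 without K562, 3062 and 3169 without MV4-11, and 3345 and 3377 with each line as its own group. Those 3 fits take the spread from within lines alone. It called 89 and 13 with the line as a random block, 708 and 355 without the shRNA covariate, 129 and 15 at an adjusted p under 0.01, 263 higher with a filter at log2 6, and 88 lower at a difference of 1 or more. The separated genes numbered 854 and 746 without K562, 714 and 430 without MV4-11, 753 and 362 at a gap of 0.5, and 133 and 22 at a gap of 2. Upward they numbered 190 when a gene had to reach log2 5 on an array of K562 or MV4-11, a setting added after values had been seen. Other filters and normalizations stayed within 1.5 times of the reported counts. Of the 68 genes named by the rule, 54 passed limma as reported and 37 with the random block. None changed direction in any setting run, but 67 of the 68 had been chosen because they were separated. Leaving out arrays or changing the model could therefore not reverse them, and their constant direction is no check. Of 450 list medians 105 moved and 38 changed sign. No paired analysis was possible because the labels carry no replicate numbers, other than the matching of arrays by shRNA that the covariate makes. The files hold no detection calls, which limits what low values show.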
